A study of Mus musculus with 9 samples.

Results

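Reporter-positive cells of bile duct organoids given R-spondin 1 (Rspo1) were compared with cells of untreated organoids, passage by passage. The samples were chosen by their labels: the 3 libraries of tdTomato-positive cells from Rspo1-treated organoids (Rspo1-positive) and the 3 of tdTomato-negative cells from control organoids (untreated), 6 of the 9 libraries of the series. Both groups came from organoids of a single male mouse of mixed genetic background with the genotype Axin2CreERT2+/-; R26-LSL-tdTom+/-, so the Cre recombinase was made where Axin2 is expressed. Each group was sampled at passages 5, 6 and 10. Organoids of both groups had 11 days of differentiation, and in the final 24 h both received dexamethasone at 3 uM and 4-hydroxytamoxifen (4-OHT), which activates the Cre, at 500 nM. Rspo1 at 100 ng/ml was added in the treated group alone. Cells were dissociated with TriplE at 37 °C and sorted. Treatment and sorting gate therefore changed together between the groups, and reporter-positive cells of untreated organoids were not analysed here. Replicates are passages of 1 organoid line, so the p-values measure the spread between cultures and not between animals.

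Rspo1 is a secreted protein that binds Lgr receptors and removes the E3 ubiquitin ligases Znrf3 and Rnf43 from the cell surface, which leaves more Frizzled receptors for Wnt ligands. Wnt signalling stabilises beta-catenin, which acts with T-cell factors on target genes, many of them feedback inhibitors such as Axin2. In the liver, Wnt activity is known for the pericentral zone of the lobule and for the growth of bile duct organoids, whose cells express keratins, mucins, transporters and detoxifying enzymes of the biliary tree.

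Total counts were 30879431 to 32769578 in the untreated and 31797642 to 35433896 in the Rspo1-positive libraries, and 22635 to 24578 genes had a count. The first principal component (43.0% of the variance) separated the groups, with untreated scores of -45.2, -46.7 and -19.0 and Rspo1-positive scores of 19.0, 49.4 and 42.4 at passages 5, 6 and 10. The 3 genes of a ribosomal RNA locus took 0.591, 5.37 and 1.66% of counts in the untreated libraries and 0.499, 20.9 and 10.1% in the Rspo1-positive libraries, so the Rspo1-positive libraries of passages 6 and 10 stand apart in this share. The 9 duct markers summed to 13620 to 16720 CPM (the count of a gene scaled by library size) in untreated and 10620 to 13180 CPM in Rspo1-positive libraries. Marker sums in this paragraph were scaled by total counts alone, unlike the CPM of single genes below. These totals include the ribosomal RNA locus, so a larger locus share lowers the sums. Of other cell types, 8 stromal markers summed to at most 1.38 CPM and 4 endothelial markers to at most 0.822 CPM in any of the 6 libraries, and Lum, Cdh5 and Hbb-bs had no count. The 6 blood markers, mostly Csf1r and Cd68, summed to 45.6 to 71.7 CPM in untreated and 42.5 to 59.4 CPM in Rspo1-positive libraries. Ptprc, Lyz2 and Cd3e of that list had at most 5 counts in any library. The 10 hepatocyte markers, mostly Ttr, summed to 180.1 to 405 and 207 to 358 CPM. Cps1, Cyp2e1, Cyp3a11, Serpina1a, Tat and G6pc of that list had at most 7 counts in any library, while Alb had 116 to 503. Fewer cells of a type and less RNA per cell cannot be told apart in these sorted bulk samples.

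With passage as a block, 1900 of 16688 tested genes (11.4%) differed at an adjusted p under 0.05 and are named called here (edgeR, quasi-likelihood F-test, p adjusted by Benjamini and Hochberg over all tested genes). Of these, 976 (5.85% of those tested) were higher and 924 (5.54%) lower in Rspo1-positive cells. Among the 1900 genes, 1894 (99.7%) had the same direction in all 3 passages and 1571 (82.7%) had no overlap between the groups, where 23.3% of all tested genes had none. A fit paired by passage favours genes with a shared direction, so that share is not separate evidence. Rises reached larger sizes than falls: 252 higher against 58 lower genes had a log2 fold change beyond 2. Genes of the 3 cell cycle lists gave 266 of the higher calls among 305 tested, and 710 higher and 923 lower calls lay outside them. The counts depended on the pairing: with no passage term 683 genes were called, all of them among the 1900. There were 1244 calls without passage 5, 2798 without passage 6 and 1667 without passage 10. Without the 3 ribosomal RNA locus genes there were 1899, and 97.0% of the 1900 genes remained called.

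The Wnt feedback and target list held the largest rise of all called genes, that of Axin2. Of 25 members tested, 11 rose and 2 fell, against a background of 5.85% and 5.54%, and the list's median was 0.50 where that of all tested genes was 0.015 (log2). These 2 shares of all tested genes are the background for the list counts that follow. The count includes Troap, a spindle-associated gene that also stands in the mitosis list; without it, 10 of 24 rose. Axin2, a scaffold of the complex that degrades beta-catenin, drives the reporter on which the cells were sorted. The difference in its level between the 2 Rspo1 groups did not pass the main test but did without passage 6 (values below). Cells without tdTomato from Rspo1-treated organoids, sorted by the same gate as the untreated cells, exceeded them in Axin2 by 4.98 (log2, adjusted p = 1.58e-05). That value comes from an edgeR fit of all 9 libraries with passage as a block. A division of the rise between treatment and sorting gate was not tested. Axin2 measured 1.32, 1.74 and 5.96 CPM in the untreated and 75.4, 88.6 and 154 CPM in the Rspo1-positive libraries (log2 fold change 5.32, SE 0.23, adjusted p = 3.36e-05). Here and below, library values are in the order of passages 5, 6 and 10, fold changes are on the log2 scale, and adjusted p-values are those of the paired edgeR fit. No Rspo1-positive library fell within the untreated range. Sp5, a zinc finger transcription factor and direct Wnt target, measured 0.522, 1.1 and 0.691 CPM in the untreated and 10.4, 23.8 and 31.5 CPM in the Rspo1-positive libraries (log2 fold change 4.79, SE 0.26, adjusted p = 3.47e-05). Lgr5, an Rspo1 receptor and stem cell marker on chromosome 10, 115450311 to 115587780 (GRCm38), measured 0.369, 0.0668 and 0.173 CPM in the untreated and 5.62, 10.4 and 1.62 CPM in the Rspo1-positive libraries (log2 fold change 4.61, SE 0.56, adjusted p = 0.00131). The passage 10 library was the lowest of the Rspo1-positive group for Lgr5 and still lay above every untreated library. Ascl2, a basic helix-loop-helix factor of intestinal stem cells, measured 0.4, 0.334 and 0.345 CPM in the untreated and 4.86, 3.47 and 4.83 CPM in the Rspo1-positive libraries (log2 fold change 3.60, SE 0.28, adjusted p = 0.000132). Tcf7, a beta-catenin partner that binds DNA, measured 2.55, 1.54 and 5.09 CPM in the untreated and 14.1, 15.5 and 22.1 CPM in the Rspo1-positive libraries (log2 fold change 2.61, SE 0.24, adjusted p = 0.000303).

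Promoter sequence was printed for 3 of these genes whose levels rose by more than 4 (log2), to show what the start region of strongly raised genes holds: 250 bases before the start on GRCm38.p6, from RefSeq, 5′ to 3′ on the gene's strand. Capitals mark matches to the core letters bound by T-cell factors (CTTTGAA or CTTTGAT or CTTTGTA or CTTTGTT on either strand; the forms do not overlap one another here). Lect2, a secreted liver protein described below, stands beside Sp5 and Axin2.
Sp5, chr2:70474673-70474922, plus strand: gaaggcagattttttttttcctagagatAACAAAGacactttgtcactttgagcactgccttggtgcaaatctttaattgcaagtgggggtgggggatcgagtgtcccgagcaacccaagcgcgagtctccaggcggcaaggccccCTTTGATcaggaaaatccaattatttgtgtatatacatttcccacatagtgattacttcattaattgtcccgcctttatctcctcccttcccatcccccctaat
Lect2, chr13:56548539-56548788, minus strand: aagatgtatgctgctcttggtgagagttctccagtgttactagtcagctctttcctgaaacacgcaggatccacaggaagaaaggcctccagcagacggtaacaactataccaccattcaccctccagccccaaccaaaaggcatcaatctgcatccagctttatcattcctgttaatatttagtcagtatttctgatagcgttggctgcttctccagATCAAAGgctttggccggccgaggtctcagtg
Axin2, chr11:108920099-108920348, plus strand: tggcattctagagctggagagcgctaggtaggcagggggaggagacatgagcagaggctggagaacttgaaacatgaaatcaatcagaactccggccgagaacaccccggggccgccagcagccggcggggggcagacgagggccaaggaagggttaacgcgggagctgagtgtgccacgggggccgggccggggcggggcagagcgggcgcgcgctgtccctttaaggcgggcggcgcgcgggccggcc
Sp5 had matches 222 and 104 bases before its start, Lect2 had 1 at 32 bases, and Axin2 had none in this window. Such a match was present in 12.7% of the tested genes with a promoter entry (1417 of 11167). It was present in 5 of the 12 largest-rise genes and 3 of the 16 largest-fall genes that had an entry. Among called genes in no cell cycle list, the share was 14.2% for the higher (72 of 507) and 13.5% for the lower (89 of 660). Members of the Wnt list called higher had it in 1 of 7 promoters. A match in these letters is a description of the window and not a binding site.

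Negative regulators at the membrane rose by less than Axin2 or Sp5. Znrf3 and Rnf43, the ligases that Rspo1 counteracts, rose by 0.89 and 0.78 (adjusted p = 0.00513 and 0.00815). Znrf3 measured 23.6, 31.4 and 22.2 CPM in the untreated and 45, 44.7 and 50.7 CPM in the Rspo1-positive libraries, and the groups did not overlap. Sox9, a factor of duct cells and progenitors, rose by 1.36 and Myc by 0.48. Bambi, a pseudoreceptor that dampens transforming growth factor beta signals, fell by 1.25, and Porcn, the enzyme that lipidates Wnt ligands, fell by 0.49. Nkd1, a feedback inhibitor, had too few counts for the test, with 0 in each untreated library and 3, 10 and 6 in the Rspo1-positive ones. Myc (0.276 without passage 5, 0.0721 without passage 10) and Porcn (0.151 without passage 5, 0.0843 without passage 10) were not called in those alternatives (adjusted p in parentheses). Sox9, Jun, Porcn and Myc lost the call with passage left out of the model, at adjusted p of 0.0519 to 0.48.

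The receptor and ligand list moved little as a whole: of 42 members tested, 4 rose and 5 fell. Lgr4, the other Lgr receptor with a sizeable level, measured 68.9, 108 and 68.1 CPM in the untreated and 49.7, 46.4 and 54.6 CPM in the Rspo1-positive libraries and fell (log2 fold change -0.65, SE 0.17, adjusted p = 0.0403), opposite to Lgr5. Among the Frizzled receptors, Fzd9 (1.69) and Fzd2 (0.94) rose and Fzd5 (-0.99) and Fzd4 (-0.55) fell. Fzd5 measured 118, 150.4 and 113 CPM in the untreated and 74.4, 56.3 and 59.7 CPM in the Rspo1-positive libraries, so its 3 Rspo1-positive libraries lay below all untreated ones. The ligands Wnt4 (-1.14) and Wnt7a (-0.75) fell, and Wnt5b rose (1.24). The corepressor Tle1, which binds T-cell factors, rose (log2 fold change 1.03, SE 0.17, adjusted p = 0.00534). Rspo1 itself had no count in any of the 6 libraries. Ctnnb1, which encodes beta-catenin, measured 1789.5, 1963 and 1469 CPM in the untreated and 1507, 1482 and 1382 CPM in the Rspo1-positive libraries and was not called (log2 fold change -0.23, SE 0.17, adjusted p = 0.44). Fzd9 (0.0631 without passage 5), Fzd2 (0.128 without passage 5, 0.0816 without passage 10), Fzd4 (0.157 without passage 5, 0.0545 in the fit of all 9 libraries) and Wnt5b (0.0546 without passage 5) were not called in those alternatives (adjusted p in parentheses). Fzd9, Wnt4, Lgr4, Fzd2, Wnt5b and Fzd4 lost the call with passage left out of the model, at adjusted p of 0.0563 to 0.596.

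Of 15 tested genes of the pericentral, Wnt-dependent liver list, 4 rose and 0 fell. Lect2, a secreted protein of hepatocytes and a known Wnt target, measured 0.0922, 0.167 and 0.0575 CPM in the untreated and 2.68, 2.66 and 2.37 CPM in the Rspo1-positive libraries (log2 fold change 4.61, SE 0.40, adjusted p = 0.000224), on 2 to 5 counts per untreated library. Cdo1, the cysteine dioxygenase of sulphur amino acid breakdown, measured 1.72, 3.81 and 2.01 CPM in the untreated and 18.1, 22.9 and 16.3 CPM in the Rspo1-positive libraries (log2 fold change 3.00, SE 0.19, adjusted p = 6.52e-05). Rgn, a calcium-binding lactonase, and Ahr, the aryl hydrocarbon receptor, rose by 1.94 and 0.70. Glul, the glutamine synthetase that marks the pericentral zone, was not called (log2 fold change -0.59, SE 0.22, adjusted p = 0.135), and Cyp2e1 had 0 to 7 counts per library and was not tested. Rgn (0.0522 without passage 5) and Ahr (0.0527 without passage 5) were not called in those alternatives (adjusted p in parentheses). Ahr lost the call with passage left out of the model, at an adjusted p of 0.0718.

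**Figure D1:**
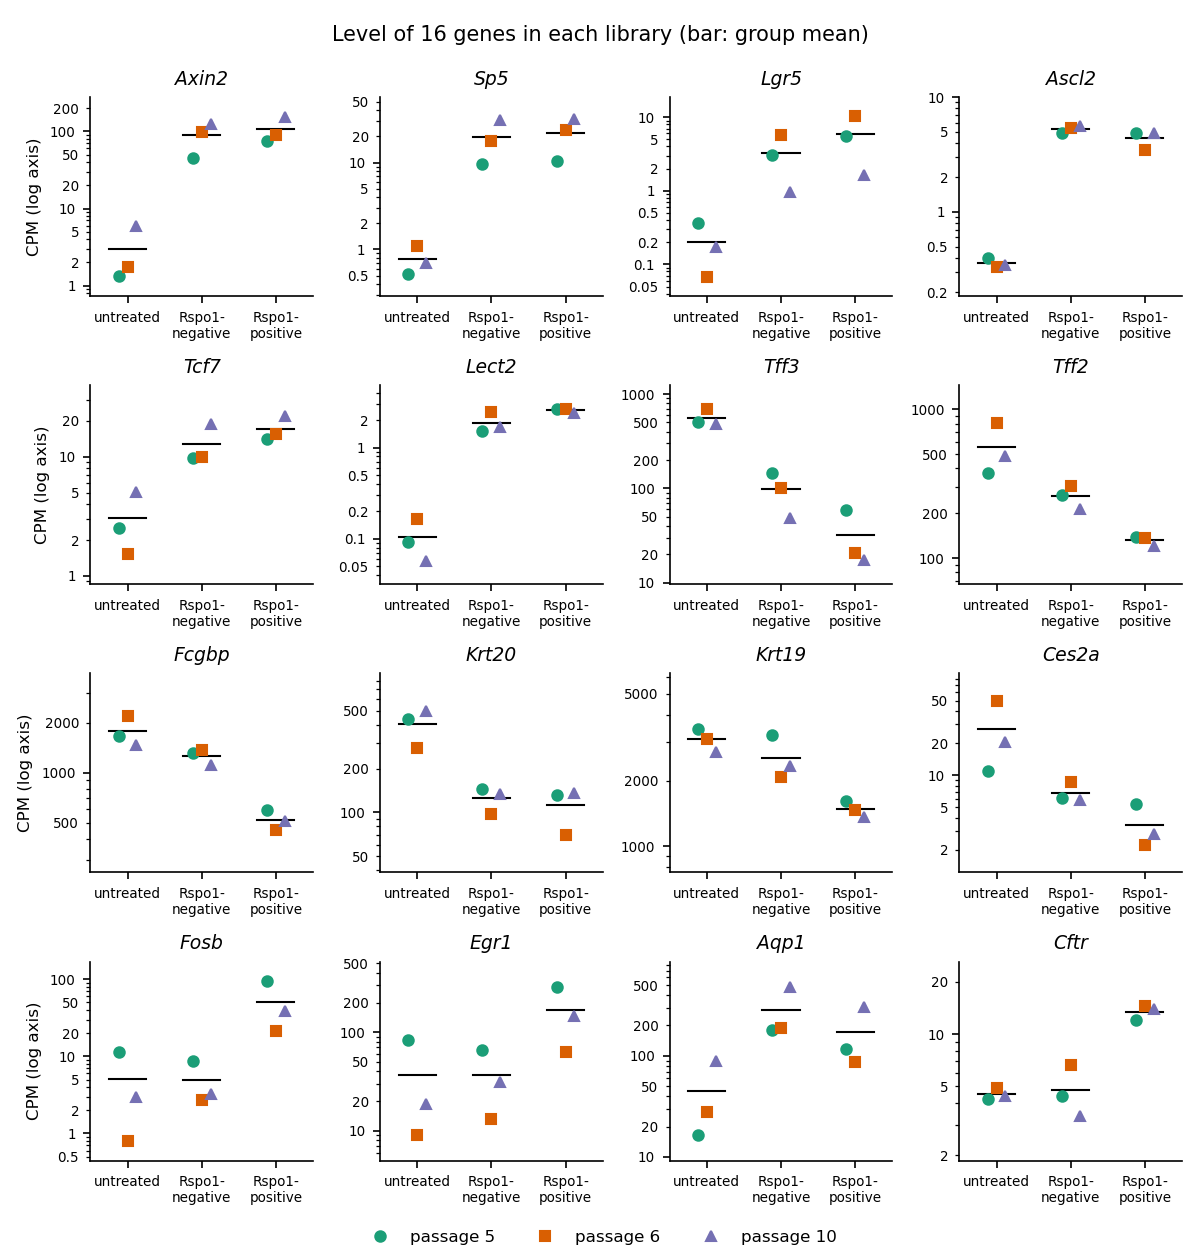
Level of 16 genes (CPM, log axis) in the untreated and Rspo1-positive libraries and in those of tdTomato-negative cells under Rspo1 (Rspo1-negative), with symbols for passage and a bar for the group mean. Untreated libraries lie below the others for the 6 Wnt-related genes at the start, and the group means of the trefoil genes and Fcgbp step down from left to right. For Tff3, the Rspo1-negative library of passage 10 (49.0 CPM) lies below the Rspo1-positive library of passage 5 (58.9 CPM).

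Many secretory genes of the trefoil and mucin list fell. Of 30 tested members, 1 rose and 15 fell, with a list median of -0.63. Trefoil factors are small peptides secreted with mucins that protect and repair epithelia, and all 3 fell. On the scale per transcript length (authors' FPKM), the group mean of Tff3 went from 1124 to 65.1, of Tff2 from 934 to 224 and of Tff1 from 58.4 to 15.5. Tff3 measured 512, 689.8 and 485 CPM in the untreated and 58.9, 20.9 and 17.3 CPM in the Rspo1-positive libraries (log2 fold change -4.31, SE 0.37, adjusted p = 0.000205). Tff2 measured 372, 806 and 483 CPM in the untreated and 139, 137 and 120.0 CPM in the Rspo1-positive libraries (log2 fold change -1.98, SE 0.21, adjusted p = 0.000636), with its Rspo1-positive libraries close together. Tff1 measured 41.7, 26.5 and 16.7 CPM in the untreated and 10.2, 8.08 and 4.19 CPM in the Rspo1-positive libraries (log2 fold change -1.90, SE 0.15, adjusted p = 0.00013). The 3 genes lie side by side on chromosome 17 between 31125306 and 31165277 (GRCm38). All 6 genes tested within 50000 bp of that stretch were called lower. Besides the trefoil factors they were Abcg1, a sterol exporter (-1.48), Tmprss3, a membrane protease (-1.46), and Gm15318 (-1.95), which overlaps Tff1 on the other strand. These 3 were named after their values were seen.

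Other genes of mucus fell as well. Fcgbp, a mucus component that binds immunoglobulin, on chromosome 7, 28071236 to 28120862 (GRCm38), measured 1653, 2196 and 1459 CPM in the untreated and 596, 452 and 510.2 CPM in the Rspo1-positive libraries (log2 fold change -1.74, SE 0.20, adjusted p = 0.00106). Muc13, a membrane mucin, measured 16.9, 25.8 and 62.3 CPM in the untreated and 3.34, 2.49 and 12.3 CPM in the Rspo1-positive libraries (log2 fold change -2.64, SE 0.21, adjusted p = 0.000169). Clca1, a secreted mucus protease, fell by 2.55 and Psca, a surface protein of the prostate and stomach epithelium, by 2.38. Gcnt3, which builds branched mucin glycans, fell by 1.09. Dmbt1, a secreted scavenger protein and among the most abundant transcripts, measured 10769, 31884 and 24723 CPM in the untreated and 6722, 6882 and 9093 CPM in the Rspo1-positive libraries (log2 fold change -1.43, SE 0.33, adjusted p = 0.0274). Muc1 was not called (log2 fold change -0.61, SE 0.17, adjusted p = 0.0592). Pgc, the progastricsin precursor of a gastric protease, was the 1 member that rose and measured 2.21, 3.57 and 8.69 CPM in the untreated and 23, 17.9 and 51.1 CPM in the Rspo1-positive libraries (log2 fold change 2.74, SE 0.21, adjusted p = 0.000128). Dmbt1 (0.0826 without passage 5, 0.0707 without passage 10, 0.299 by DESeq2) and Tmprss3 (0.0567 without passage 10) were not called in those alternatives (adjusted p in parentheses). Dmbt1, Muc13, Tmprss3, Clca1, Psca and Abcg1 lost the call with passage left out of the model, at adjusted p of 0.0762 to 0.303.

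**Figure D2:**
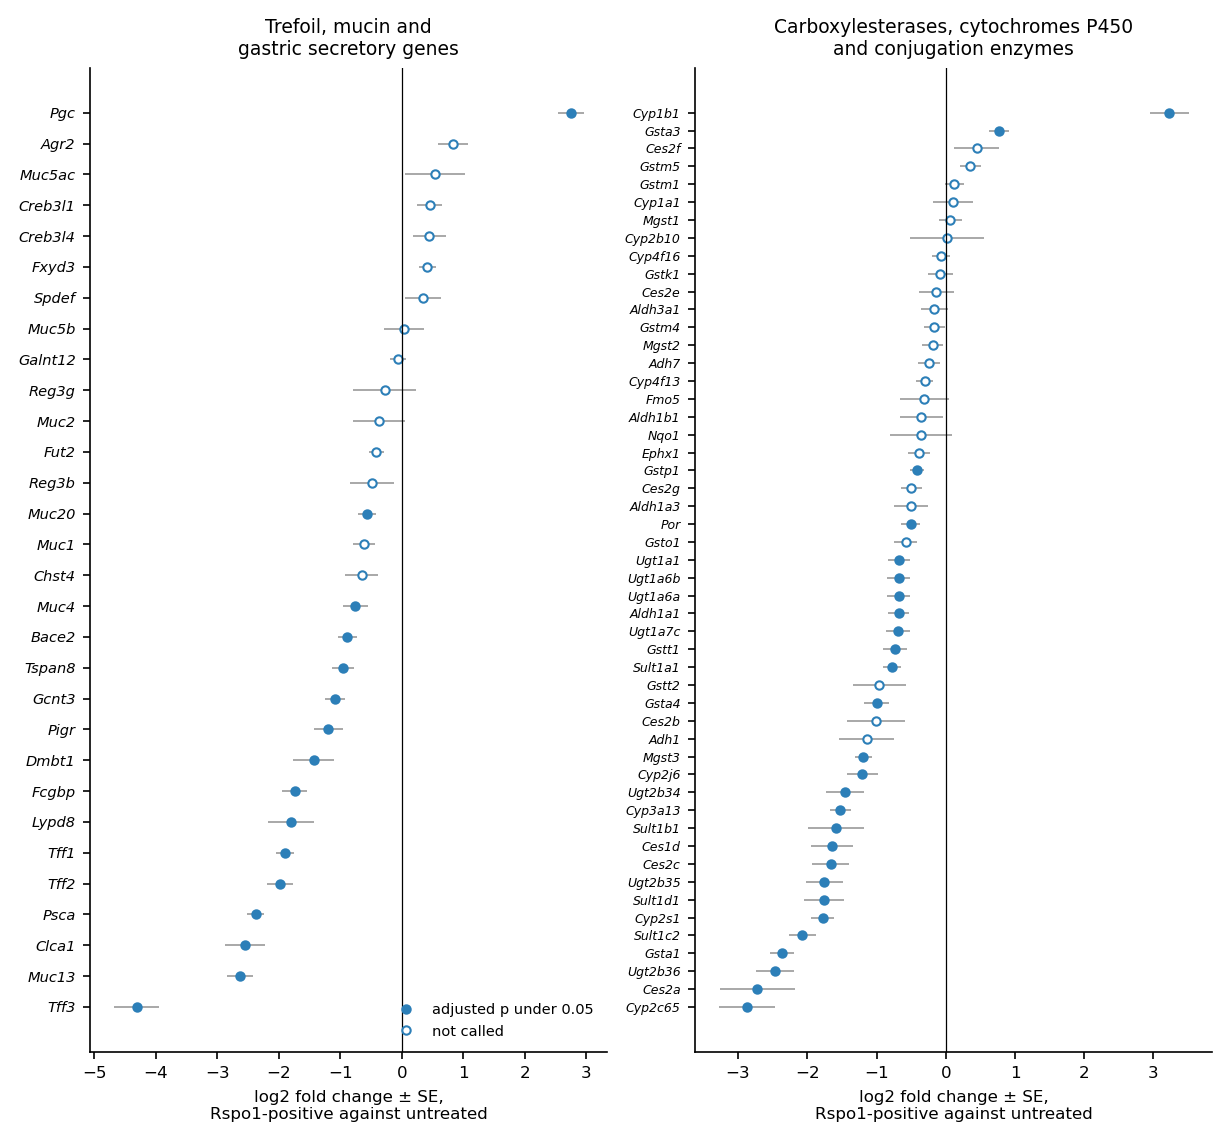
Log2 fold change (± SE) of each tested member of the trefoil and mucin list (left) and the carboxylesterase and conjugation enzyme list (right), filled where called. Of the members, 15 of 30 on the left and 25 of 51 on the right were called lower, and Pgc and Cyp1b1 stand alone at the top.

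Duct identity genes fell in part. Of 39 tested, 0 rose and 12 fell, with a median of -0.21. Sox9, also a factor of duct cells, stood in the Wnt list and not in this one, and it rose (given above). Krt20, a keratin of differentiated gut and urothelial cells on chromosome 11, 99428403 to 99438150 (GRCm38), measured 439.8, 275 and 499.5 CPM in the untreated and 131, 69.7 and 135 CPM in the Rspo1-positive libraries (log2 fold change -1.86, SE 0.13, adjusted p = 8.60e-05). Krt19, the classical duct keratin, measured 3452, 3121 and 2709.9 CPM in the untreated and 1612, 1469 and 1364 CPM in the Rspo1-positive libraries (log2 fold change -1.04, SE 0.18, adjusted p = 0.00691). Both genes had no overlap between groups. On the FPKM scale the mean of Krt19 went from 1934 to 930.4, while Krt8 went from 1542 to 1263 and Krt18 from 1707 to 1661. Neither Krt8 (log2 fold change -0.27, SE 0.19, adjusted p = 0.413) nor Krt18 (log2 fold change -0.027, SE 0.18, adjusted p = 0.949) was called, and Krt7 was not either (log2 fold change -0.53, SE 0.19, adjusted p = 0.116). Anxa13, an annexin of epithelial membranes, fell by 1.07 and Onecut2, a liver and duct transcription factor, by 0.77. Foxj1, the regulator of motile cilia, measured 115, 182 and 47.9 CPM in the untreated and 61.7, 87.6 and 23.4 CPM in the Rspo1-positive libraries (log2 fold change -0.98, SE 0.11, adjusted p = 0.000735), while of 39 cilium genes 2 rose and 0 fell, near the background. Epcam, an epithelial adhesion protein, was not called (log2 fold change -0.033, SE 0.14, adjusted p = 0.918). Krt19 (0.121 without passage 5) and Onecut2 (0.0688 without passage 5) were not called in those alternatives (adjusted p in parentheses). Anxa13, Onecut2 and Foxj1 lost the call with passage left out of the model, at adjusted p of 0.0626 to 0.426.

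Of 35 tested duct transport genes, 3 rose and 8 fell, the rises near the 5.85% of all tested genes. Aqp1, the water channel of cholangiocytes, measured 16.6, 27.6 and 89.8 CPM in the untreated and 118, 87.8 and 306 CPM in the Rspo1-positive libraries (log2 fold change 2.09, SE 0.22, adjusted p = 0.000536). Its level also differed between passages, so that the passage 10 untreated library exceeded the passage 6 Rspo1-positive one. Cftr, the chloride channel of bile secretion, measured 4.21, 4.87 and 4.37 CPM in the untreated and 12, 14.6 and 13.9 CPM in the Rspo1-positive libraries (log2 fold change 1.60, SE 0.16, adjusted p = 0.00039), with no overlap. Several genes of bile acid handling fell. Abcc3, an exporter of conjugated bile acids, measured 1071, 857 and 1090.5 CPM in the untreated and 514, 321 and 509 CPM in the Rspo1-positive libraries (log2 fold change -1.18, SE 0.15, adjusted p = 0.00192). Slc10a2, the apical bile acid importer, measured 58.2, 67.6 and 56 CPM in the untreated and 34.6, 27.2 and 42 CPM in the Rspo1-positive libraries (log2 fold change -0.81, SE 0.16, adjusted p = 0.0148). Nr1h4, the bile acid receptor FXR, measured 22.4, 25.8 and 23 CPM in the untreated and 13.2, 10.5 and 10.6 CPM in the Rspo1-positive libraries (log2 fold change -1.05, SE 0.15, adjusted p = 0.00305). Abcb1a, a drug exporter, fell by 1.34. Abcb1a and Aqp1 lost the call with passage left out of the model, at adjusted p of 0.131 to 0.179.

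Detoxifying enzymes had the lowest median among lists with at least 10 tested members, -0.68. Of 51 tested, 2 rose and 25 fell. Among carboxylesterases, Ces2a measured 10.8, 49.9 and 20.4 CPM in the untreated and 5.33, 2.22 and 2.82 CPM in the Rspo1-positive libraries (log2 fold change -2.73, SE 0.54, adjusted p = 0.0144), with the smallest difference at passage 5 (-1.01) and the largest at passage 6 (-4.42). Among cytochromes P450, Cyp2c65 fell by 2.87, Cyp2s1 by 1.78 and Cyp3a13 by 1.52. Cyp2s1 measured 464, 433 and 435 CPM in the untreated and 178, 102 and 117 CPM in the Rspo1-positive libraries. Among glutathione transferases, Gsta1 measured 26.9, 10.1 and 15.2 CPM in the untreated and 5.7, 1.55 and 3.15 CPM in the Rspo1-positive libraries (log2 fold change -2.37, SE 0.17, adjusted p = 9.19e-05). Among sulphotransferases, Sult1c2 measured 101, 123 and 144 CPM in the untreated and 34.7, 18.9 and 35 CPM in the Rspo1-positive libraries (log2 fold change -2.07, SE 0.20, adjusted p = 0.000361), and Sult1d1 fell by 1.75. Among glucuronosyltransferases Ugt2b36 fell by 2.47, and 4 Ugt1a genes fell by 0.68 to 0.70. These 4 share 50.3 to 60.6% of their exon bases, so their counts are not separate measurements. Cyp1b1, a P450 that hydroxylates oestrogens and aromatic hydrocarbons, on chromosome 17, 79701537 to 79715061 (GRCm38), went the other way. It measured 1.94, 7.01 and 1.41 CPM in the untreated and 23, 36 and 21 CPM in the Rspo1-positive libraries (log2 fold change 3.23, SE 0.28, adjusted p = 0.000223). Ugt1a1 (0.092 without passage 5), Ugt1a6a (0.0979 without passage 5), Ugt1a6b (0.0883 without passage 5) and Ugt1a7c (0.124 without passage 5) were not called in those alternatives (adjusted p in parentheses). Sult1d1, Ugt1a6a, Ugt1a6b, Ugt1a1 and Ugt1a7c lost the call with passage left out of the model, at adjusted p of 0.0686 to 0.176.

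Of 21 tested hepatocyte secreted protein and periportal enzyme genes, 0 rose and 4 fell. Ambp, the precursor of alpha-1-microglobulin and bikunin, measured 116, 179 and 88.8 CPM in the untreated and 37.5, 29.2 and 28.3 CPM in the Rspo1-positive libraries (log2 fold change -1.94, SE 0.19, adjusted p = 0.00042), and Ass1, an enzyme of the urea cycle, fell by 1.19. Alb, the albumin gene, measured 9.04, 15.3 and 14.5 CPM in the untreated and 6.19, 3.9 and 8.73 CPM in the Rspo1-positive libraries (log2 fold change -1.05, SE 0.26, adjusted p = 0.0373). Of 28 complement and acute phase genes, 1 rose and 5 fell. C4b, a central complement component, measured 193, 223 and 287 CPM in the untreated and 67.1, 68.7 and 134 CPM in the Rspo1-positive libraries (log2 fold change -1.43, SE 0.14, adjusted p = 0.000461). Masp1, which starts the lectin pathway, fell by 1.58 and Cfhr2, a factor H-related protein, by 2.55. Cfi, the protease that inactivates complement fragments, rose (log2 fold change 1.08, SE 0.26, adjusted p = 0.0314). Cfi (0.0657 without passage 5, 0.106 by DESeq2) was not called in those alternatives (adjusted p in parentheses). Ass1, Alb and Cfi lost the call with passage left out of the model, at adjusted p of 0.051 to 0.38.

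Immediate early genes, which cells induce within minutes of a stimulus, were higher in part: of 26 tested, 10 rose and 3 fell. Fosb, a subunit of the AP-1 transcription factor, measured 11.5, 0.801 and 2.99 CPM in the untreated and 94.1, 21.2 and 38.7 CPM in the Rspo1-positive libraries (log2 fold change 3.66, SE 0.27, adjusted p = 0.000102). Egr1, a zinc finger factor, measured 82.8, 9.01 and 18.6 CPM in the untreated and 289, 62.9 and 146 CPM in the Rspo1-positive libraries (log2 fold change 2.53, SE 0.22, adjusted p = 0.000236). In both genes passage 5 was the highest library within each group and passage 6 the lowest, and for Egr1 the groups overlapped. Fos measured 183, 73 and 70.0 CPM in the untreated and 580.2, 200.3 and 292 CPM in the Rspo1-positive libraries (log2 fold change 1.74, SE 0.15, adjusted p = 0.000209). Jun, its partner, rose by 1.29 and the nuclear receptor Nr4a1 by 1.94. Egr2 rose by 2.63, but at passage 6 it measured 0.167 CPM in untreated and 0.0673 CPM in Rspo1-positive cells. Junb (log2 fold change -0.17, SE 0.13, adjusted p = 0.467) and Jund (log2 fold change -0.087, SE 0.13, adjusted p = 0.74) were not called. Egr2 (0.128 without passage 5, 0.0513 without passage 10, 0.275 by DESeq2) was not called in those alternatives (adjusted p in parentheses). Nr4a1, Fosb, Fos, Jun, Egr1 and Egr2 lost the call with passage left out of the model, at adjusted p of 0.0566 to 0.278.

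Cytokine genes split: of 34 tested, 9 rose and 5 fell. Il33, an alarmin cytokine of epithelia, measured 3.41, 3.44 and 5.12 CPM in the untreated and 11, 13.9 and 20.8 CPM in the Rspo1-positive libraries (log2 fold change 1.93, SE 0.16, adjusted p = 0.000202). Cxcl2, a neutrophil chemoattractant, measured 6.64, 8.45 and 8.29 CPM in the untreated and 20.7, 28.2 and 11.9 CPM in the Rspo1-positive libraries (log2 fold change 1.32, SE 0.24, adjusted p = 0.0105), and Csf1, the macrophage growth factor, rose by 1.24. Ccl2, a monocyte chemoattractant, rose by 1.62, and Fam3b, a secreted cytokine-like protein, fell by 2.49. Nfkbia, the inhibitor that NF-kB itself induces, was not called (log2 fold change -0.036, SE 0.11, adjusted p = 0.884). Of 40 interferon response and antigen presentation genes, 3 rose and 0 fell, near the 5.85% of all tested genes. Irf8, an interferon regulatory factor, measured 0.768, 0.868 and 0.547 CPM in the untreated and 2.73, 2.32 and 3.18 CPM in the Rspo1-positive libraries (log2 fold change 1.93, SE 0.31, adjusted p = 0.00525). Csf1 and Ccl2 lost the call with passage left out of the model, at adjusted p of 0.282 to 0.44.

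In the ERK, FGF and EGF list, 7 rose and 5 fell of 34 tested. Etv4, an ETS transcription factor downstream of FGF receptors, measured 14.1, 9.55 and 15.4 CPM in the untreated and 43.5, 50.5 and 56.6 CPM in the Rspo1-positive libraries (log2 fold change 1.98, SE 0.17, adjusted p = 0.000198), and its relative Etv5 rose by 0.99. The ligand Fgf1 measured 3.26, 4.14 and 5.06 CPM in the untreated and 9.72, 12.8 and 11.6 CPM in the Rspo1-positive libraries (log2 fold change 1.48, SE 0.18, adjusted p = 0.00115). The receptors went opposite ways: Fgfr4 rose by 1.03, while Fgfr3 measured 126, 118 and 155 CPM in the untreated and 42.4, 27.6 and 43.1 CPM in the Rspo1-positive libraries (log2 fold change -1.82, SE 0.13, adjusted p = 8.82e-05). The EGF receptors Egfr and Erbb2 fell by 0.60 and 0.52, and Lrig1, which restrains them, rose by 0.87. Dusp6, a feedback phosphatase of ERK, was not called (log2 fold change -0.26, SE 0.13, adjusted p = 0.233). Egfr (0.0555 without passage 5) and Erbb2 (0.171 without passage 5, 0.084 without passage 10) were not called in those alternatives (adjusted p in parentheses). Etv5, Fgfr4, Erbb2 and Egfr lost the call with passage left out of the model, at adjusted p of 0.0546 to 0.149.

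In the TGF-beta and BMP list, 3 rose and 8 fell of 39 tested. Of the BMP ligands tested, 3 fell (Bmp6, Bmp2 and Bmp8b), while Bmp4 (-0.33), Bmp7 (0.51) and Bmp8a (-0.065) were not called. Bmp6 measured 151, 116 and 112 CPM in the untreated and 50.7, 23.7 and 32.5 CPM in the Rspo1-positive libraries (log2 fold change -1.87, SE 0.15, adjusted p = 0.00015), and Bmp2 fell by 1.55. Inhbb, a subunit of activin B, fell by 1.01. Fst, follistatin, which binds and blocks activins, went the other way at 1.29, 1.8 and 0.748 CPM in the untreated and 6.31, 12.6 and 8.82 CPM in the Rspo1-positive libraries (log2 fold change 2.87, SE 0.27, adjusted p = 0.000303). Tgfb3, a TGF-beta ligand, measured 35.4, 89.3 and 53.9 CPM in the untreated and 148, 197 and 204 CPM in the Rspo1-positive libraries (log2 fold change 1.73, SE 0.18, adjusted p = 0.000532). Id1, a BMP target, was not called (log2 fold change -0.59, SE 0.17, adjusted p = 0.064). In the Hippo-YAP list, 5 rose and 3 fell of 35 tested, and the higher ones include Birc5, an inhibitor of apoptosis that also stands in the mitosis list. Cyr61, a secreted YAP target, measured 76.2, 67.4 and 54.3 CPM in the untreated and 178, 122 and 154 CPM in the Rspo1-positive libraries (log2 fold change 1.21, SE 0.14, adjusted p = 0.000943), while the YAP target Ctgf was not called (log2 fold change 0.026, SE 0.18, adjusted p = 0.951). Of 24 Notch pathway genes, 1 rose and 1 fell, near the background. Dtx4, a regulator of Notch signals, rose by 0.53, and the Notch target Hes1 was not called (log2 fold change -0.053, SE 0.14, adjusted p = 0.857). Bmp8b (0.274 without passage 5) and Dtx4 (0.107 without passage 5) were not called in those alternatives (adjusted p in parentheses). Bmp2 and Bmp8b lost the call with passage left out of the model, at adjusted p of 0.179 to 0.497.

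Among genes with a mean level above 2 (log2 CPM), matrix genes held the second largest rise and the second largest fall. Col14a1, a fibril-associated collagen, measured 0.676, 5.61 and 2.5 CPM in the untreated and 56.6, 143 and 73.1 CPM in the Rspo1-positive libraries (log2 fold change 5.15, SE 0.27, adjusted p = 3.47e-05). Tnxb, the matrix glycoprotein tenascin X, measured 66.7, 23 and 43.2 CPM in the untreated and 5.84, 4.14 and 4.02 CPM in the Rspo1-positive libraries (log2 fold change -3.14, SE 0.22, adjusted p = 8.68e-05). Sbspon, a secreted protein with a thrombospondin repeat, rose by 3.04. Of its exon bases, 72.8% are shared with Gm37509 on the other strand, so the reads of the pair may not be separated. Thbs1, thrombospondin 1, measured 110.0, 109 and 97.5 CPM in the untreated and 239, 319.7 and 278 CPM in the Rspo1-positive libraries (log2 fold change 1.41, SE 0.14, adjusted p = 0.000395). Tnc, the glycoprotein tenascin C, rose by 1.16. The matrix list as a whole had 37 tested members, of which 5 rose and 4 fell. Its median was 0.23, and -0.11 without passage 6. Of 50 integrin, laminin and junction genes, 3 rose and 10 fell. Itga9, an integrin subunit that binds tenascin C, measured 0.676, 0.567 and 0.288 CPM in the untreated and 5.03, 3.7 and 3.24 CPM in the Rspo1-positive libraries (log2 fold change 3.01, SE 0.28, adjusted p = 0.000344). Cdh17, a cadherin of gut and duct epithelium, measured 409.7, 456 and 419 CPM in the untreated and 226, 183 and 236 CPM in the Rspo1-positive libraries (log2 fold change -0.99, SE 0.15, adjusted p = 0.00358), and Lama3, a laminin chain, fell by 0.92. Of 16 Eph receptors and ephrins, 1 rose and 1 fell, near the background. Tnc and Lama3 lost the call with passage left out of the model, at adjusted p of 0.0756 to 0.32.

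**Figure D3:**
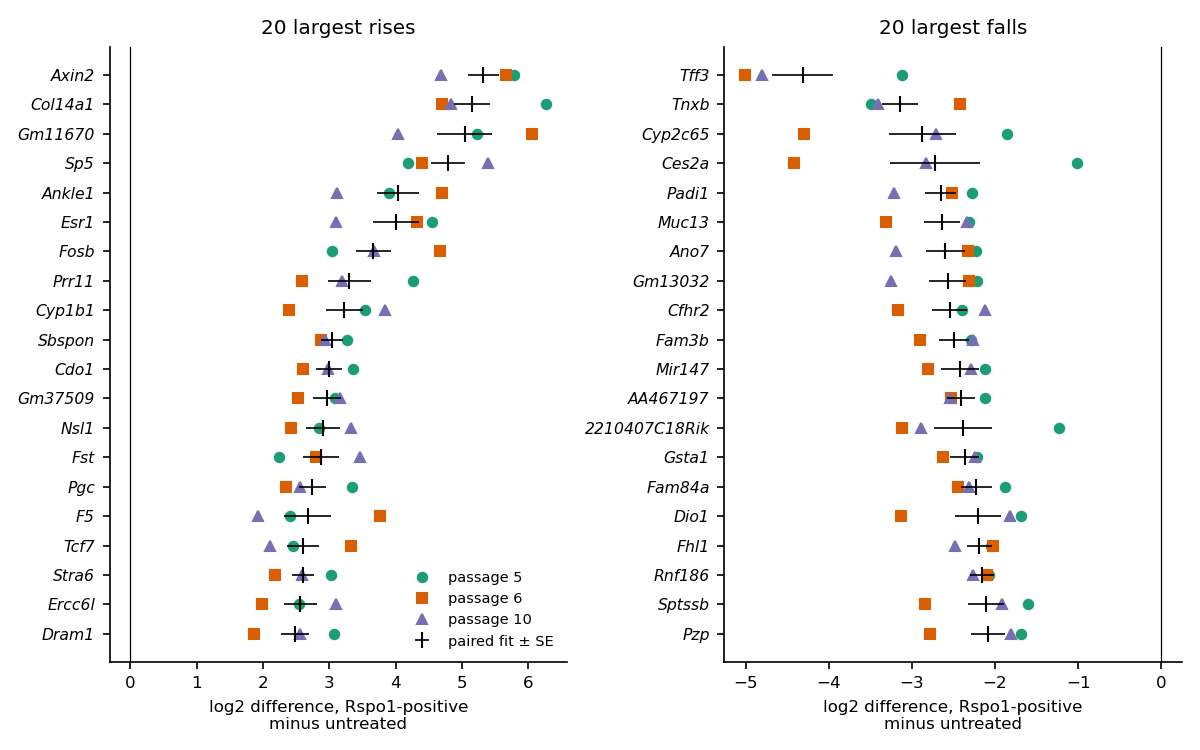
Log2 difference at each passage, and the paired estimate with its SE, for the 20 largest rises and 20 largest falls outside the cell cycle lists. A shared sign at the 3 passages was part of the rule that chose them. Ces2a has the widest spread, from -1.01 at passage 5 to -4.42 at passage 6.

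Among the remaining large rises, Esr1, the oestrogen receptor on chromosome 10, 4611593 to 5005614 (GRCm38), measured 0.246, 0.3 and 1.04 CPM in the untreated and 7.05, 6.97 and 9.29 CPM in the Rspo1-positive libraries (log2 fold change 4.01, SE 0.35, adjusted p = 0.000218). Stra6, a membrane receptor for retinol transport, measured 13.5, 37.1 and 16.8 CPM in the untreated and 110.1, 165 and 101 CPM in the Rspo1-positive libraries (log2 fold change 2.60, SE 0.17, adjusted p = 6.24e-05). Dram1, a lysosomal membrane protein of autophagy, rose by 2.48, and F5, coagulation factor V, by 2.67. Ankle1, Prr11, Nsl1 and Ercc6l rose by 4.03, 3.30, 2.90 and 2.56. Nsl1, a kinetochore subunit, and Ercc6l, a helicase of mitotic chromosomes, are division genes although they stood in no cell cycle list. Gm11670 (5.04) overlaps Axin2 on the other strand in 40.9% of its exon bases. Large falls included Pzp, a broad protease inhibitor, at 107, 171 and 154 CPM in the untreated and 33.1, 24.3 and 44.1 CPM in the Rspo1-positive libraries (log2 fold change -2.09, SE 0.21, adjusted p = 0.00042). Sptssb, a subunit of the enzyme that starts sphingolipid synthesis, fell by 2.11. Dio1, which activates thyroid hormone, fell by 2.20. Of 26 tested peptidylarginine deiminase, Ly6 and exocytosis genes, 0 rose and 8 fell. Padi1 and Padi2, which convert arginine to citrulline in proteins, fell by 2.65 and 1.68 and lie side by side on chromosome 4. Padi4 and Sdhb, on either side of them, were not called (-0.14 and -0.036). Gm13032 (-2.57) and Gm13031 (-1.875), which overlap Padi1 and Padi2 on the other strand, were called lower. Padi1 shares 32.0% of its exon bases with Gm13032, so the reads of that pair may not be separated. Sytl2 and Sytl5, which tether secretory vesicles, fell by 2.11 and 1.20. Dram1, Padi1, Gm13032, Sytl5, Sytl2 and Padi2 lost the call with passage left out of the model, at adjusted p of 0.0673 to 0.339.

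Nuclear receptors other than Esr1 and Nr4a1 were lower where they were called: of 33 tested, 2 rose and 9 fell. Pparg, a regulator of lipid storage, measured 42.4, 28.9 and 34.2 CPM in the untreated and 19.6, 11.5 and 20.9 CPM in the Rspo1-positive libraries (log2 fold change -1.03, SE 0.15, adjusted p = 0.00272), and Ppara, its fatty acid oxidation counterpart, fell by 1.69. Rora and Nr1d1, clock genes, fell by 0.76 and 0.74. Dexamethasone was present in both groups, and of 30 glucocorticoid-responsive genes 2 rose and 5 fell. Fkbp5, a glucocorticoid receptor co-chaperone and target, measured 679, 589.9 and 410.4 CPM in the untreated and 368, 261 and 216 CPM in the Rspo1-positive libraries (log2 fold change -0.98, SE 0.14, adjusted p = 0.00283). Sgk1, a kinase induced by glucocorticoids, fell by 1.11 and Tsc22d3 by 0.83. The 2 that rose were Cdo1 and Cebpd (0.67). Ppara (0.0834 without passage 10) and Cebpd (0.0978 without passage 10) were not called in those alternatives (adjusted p in parentheses). Rora, Pparg, Tsc22d3, Fkbp5, Sgk1, Cebpd and Nr1d1 lost the call with passage left out of the model, at adjusted p of 0.0629 to 0.204.

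The counts of metabolic lists are given in turn. Of 30 glycolysis and gluconeogenesis genes, 0 rose and 8 fell, with a median of -0.31. Pcx, pyruvate carboxylase, measured 146, 94.1 and 122 CPM in the untreated and 56.1, 32.8 and 53.2 CPM in the Rspo1-positive libraries (log2 fold change -1.35, SE 0.11, adjusted p = 0.000196). Slc2a1, the glucose importer, and Slc16a3, a lactate exporter, fell by 0.79 and 0.81. Of 38 genes of sterol and fatty acid synthesis, 0 rose and 5 fell, among them Acss2 (-0.80) and Scd1 (-0.62). None of 48 oxidative phosphorylation genes was called, with a median of -0.021, and none of 75 cytosolic ribosomal protein genes, with a median of -0.015. Ribosome assembly factors gave a different count: of 50 tested, 12 rose and 0 fell, with a median of 0.32. Tcof1, which promotes ribosomal RNA transcription, measured 33.1, 31.9 and 29.9 CPM in the untreated and 52.6, 59.4 and 43.7 CPM in the Rspo1-positive libraries (log2 fold change 0.72, SE 0.12, adjusted p = 0.00597), and Gar1, a guide-RNA partner that modifies ribosomal RNA, rose by 0.75. Their rise stands beside the ribosomal RNA locus share given above, which was higher in Rspo1-positive cells at passages 6 and 10 and not at passage 5; its part in these calls was not tested. Of 43 heat shock genes, 1 rose and 3 fell, near the 11.4% called among all tested genes, and Hspa1a and Hspa1b, inducible chaperones, fell by 1.04 and 0.99. Acss2, Scd1, Hspa1b, Slc2a1, Hspa1a and Slc16a3 lost the call with passage left out of the model, at adjusted p of 0.0572 to 0.289.

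**Figure D4:**
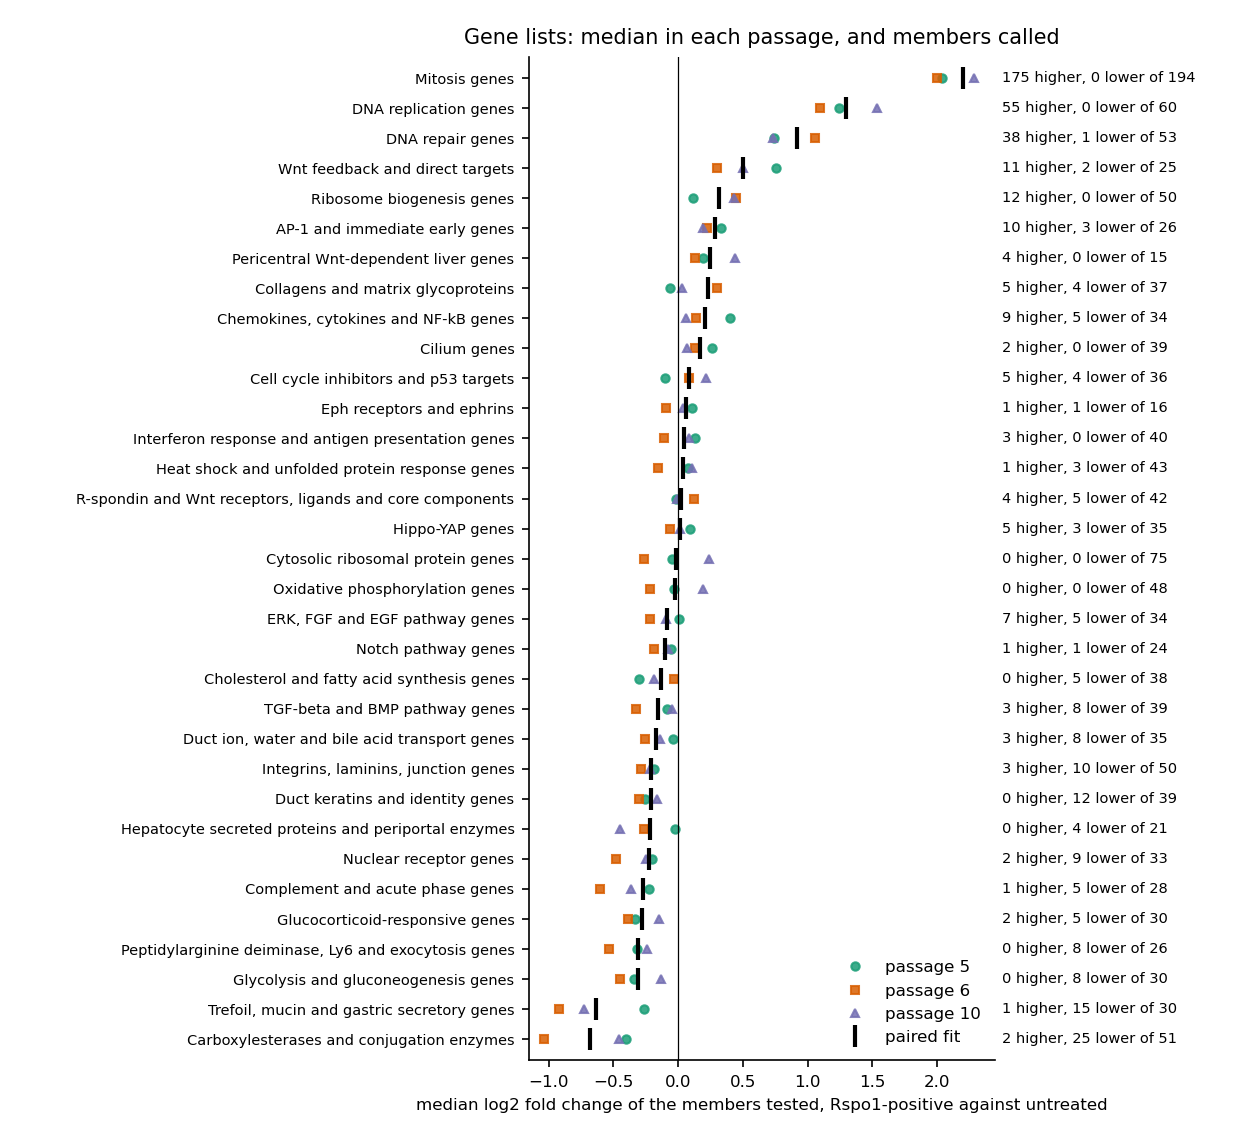
Median log2 fold change of the tested members, for lists with at least 10 of them, in the paired fit (bar) and at each passage (symbols), with the number of members called on the right. The 3 cell cycle lists lie at the top, from 0.92 to 2.20, the Wnt list next at 0.50, and the trefoil and conjugation lists at the bottom, at -0.63 and -0.68.

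The cell cycle lists formed the largest block of rises, with 55 of 60 DNA replication genes, 38 of 53 DNA repair genes and 175 of 194 mitosis genes higher. The 1 member lower was Xpc, a sensor of DNA damage (log2 fold change -0.52, SE 0.10, adjusted p = 0.0151). Among cell cycle inhibitors and p53 targets, 5 rose and 4 fell of 36. Cdkn2c, an inhibitor of cyclin D kinases, measured 2.15, 5.81 and 2.96 CPM in the untreated and 8.42, 14.9 and 12.2 CPM in the Rspo1-positive libraries (log2 fold change 1.79, SE 0.19, adjusted p = 0.000683), and Trp53 rose by 0.58. Ccnd1, cyclin D1, was not called (log2 fold change 0.23, SE 0.16, adjusted p = 0.407). Xpc (0.0856 without passage 5) and Trp53 (0.112 without passage 5) were not called in those alternatives (adjusted p in parentheses). Cdkn2c, Trp53 and Xpc lost the call with passage left out of the model, at adjusted p of 0.0519 to 0.0715.

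For some of the genes above, the sorted cells without tdTomato from the Rspo1 cultures (Rspo1-negative) were set beside these values, with the difference between the 2 Rspo1 groups tested in a fit of all 9 libraries with passage as a block. In that contrast 6624 of 17011 genes (38.9%) were called, and across genes its fold changes had a rank correlation of -0.51 with GC content, against -0.0097 for the comparison with untreated cells. Axin2 measured 44.5, 97.6 and 124 CPM in the Rspo1-negative libraries (positive minus negative 0.31, SE 0.22, adjusted p = 0.28). Sp5 measured 9.68, 17.9 and 31.3 CPM there (0.17, SE 0.20, adjusted p = 0.52), and Lect2 1.52, 2.43 and 1.7 CPM (0.49, SE 0.26, adjusted p = 0.161). None of these 3 passed the test between the Rspo1 groups. Nor did Esr1 (0.070), Cdo1 (-0.017), Sbspon (-0.0070), Stra6 (0.33), Pgc (-0.25) and Pzp (-0.20), at adjusted p of 0.192 to 0.976. Among other large rises and falls named above, Ankle1 (2.51), Cyp1b1 (1.21) and Padi1 (-1.05) were called. Only the main fit of this contrast is given for these added genes. Tff3 measured 147, 100.1 and 49 CPM (-1.64, SE 0.31, adjusted p = 0.00231), each between the untreated and the Rspo1-positive value of the same passage. Fcgbp measured 1308, 1366 and 1109 CPM (-1.26, SE 0.18, adjusted p = 0.000562) and Krt19 3237, 2073 and 2338 CPM (-0.76, SE 0.16, adjusted p = 0.00471). Fosb measured 8.66, 2.68 and 3.22 CPM (3.38, SE 0.29, adjusted p = 9.19e-05) and Cftr 4.37, 6.6 and 3.35 CPM (1.53, SE 0.19, adjusted p = 0.000367), within or near the untreated range. Col14a1 measured 12.9, 55.4 and 46.7 CPM (1.40, SE 0.26, adjusted p = 0.00241). Itga9 was higher in Rspo1-negative than in Rspo1-positive cells, at 8.32, 11.1 and 7.76 CPM (-1.18, SE 0.22, adjusted p = 0.00231), as was Aqp1 at 181, 189 and 477 CPM (-0.77, SE 0.20, adjusted p = 0.0123). With an offset for GC content and length, 4007 genes were called, Krt19 and Aqp1 lost the call (adjusted p = 0.0964 and 0.0877) and the difference of Cftr was 0.67. Krt19 was not called without passage 5 or without passage 10 (0.124 and 0.0503), while Axin2 was called without passage 6 (0.52, adjusted p = 0.02). Col14a1 and Aqp1 were not called with passage left out of that fit (0.171 and 0.446).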

How the data were processed

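RNA of sorted organoid cells was sequenced as single-end reads. The submitters' processing notes name Trimmomatic 0.35, FastQC 0.11.2, STAR 2.5.1b, featureCounts and DESeq2 with the build GRCm38. The strand setting of the counting is not given in the sources used here, so the reads of a gene and an overlapping antisense gene may not be separated. The authors deposited raw counts and FPKM values per gene and library, per the file headers. FPKM was used only where levels of different genes are set side by side. The authors' deposited table for this comparison holds log2 fold changes with their standard errors, Wald scores and p-values per gene. There, 2190 of 15807 genes had an adjusted p under 0.05, and 1763 of them (80.5%) were also among the 1900 called here, of which they make up 92.8%.

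Raw counts were fitted with edgeR 4.0.16 (R 4.3.3): filterByExpr by group (count minimum 10, total minimum 15), TMM scaling, passage as a block, then group, quasi-likelihood F-test, Benjamini-Hochberg adjustment over 16688 genes, threshold 0.05. The fit has 2 residual degrees of freedom, and the spread of a gene is moderated by that of all genes. CPM values of single genes are TMM-scaled over all 9 libraries, and log2 differences per passage used a prior count of 2. The summed CPM of cell type markers were scaled by total counts without TMM. The labels give the same passage for same-numbered libraries. Deviations from the group mean correlated at 0.453, 0.292 and 0.582 within passages 5, 6 and 10 and at -0.413 to 0.0595 between different passages. Deviations of a gene sum to 0 in each group, so positive values within passages force lower ones between passages. That contrast is thus partly built in. No pair of libraries of 1 group agreed within sampling noise, with a chi-square per gene of at least 86.8.

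The comparison and the 35 gene lists (1573 of 1605 entries found in the files) were chosen with earlier results of these data known. Genes named are Axin2, called list members with the largest differences (up to 6 a list), and the 20 largest rises and falls among called genes with mean log2 CPM above 2, the same direction in 3 passages, no overlap and no place in a cell cycle list. Further list members were named for their role, and genes outside the lists after their values were seen. A few genes that this would name are not reported here. Gene positions come from GENCODE M21 and promoters from RefSeq. The fitting code was tested on simulated data. Alternatives were DESeq2 1.42.0, other scalings, no filter, no passage term, all 9 libraries and each passage left out. A GC and length offset, leaving out the ribosomal RNA locus and the alternatives for the contrast of the 2 Rspo1 groups were added after seeing the data.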

Additional observations from a re-analysis of the deposited data

How the results depend on the processing

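The count of 1900 genes (976 higher, 924 lower) moved by more than 1.5 times in 3 settings. With no filter on low counts it was 3067 (1655 higher, 1412 lower). Without the replicate block for passage it was 683 (439 higher, 244 lower), and 64.3% of calls were higher against 51.4% with the pairing. Leaving out 1 passage gave 1244 to 2798 calls (723 to 1414 higher, 521 to 1384 lower). The lowest came without passage 5, where 57.7% of the 1900 genes remained called. DESeq2 with the block gave 2178 and the GC and length offset 2160, of which 43.2% were higher. Between the 2 Rspo1 groups 6624 genes were called, 4141 without the replicate block, 4007 with the offset and 1819 to 8006 with 1 passage left out. The causes were not tested.

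Of 253 named genes, 225 were called, and a reversal was counted for these alone. Of the 225, 0 reversed under any of the 11 alternatives, and 105 were called in all of them. Calls lost were 114 without the block, 52 without passage 5, 25 without passage 10, 0 without passage 6 and 5 by DESeq2. Krt7, Muc1, Id1 and Glul, not called by edgeR's paired fit, were called by DESeq2 (adjusted p = 0.00176, 0.000605, 0.00399 and 0.0192). Genes under the count minimum, such as Nkd1 and Cyp2e1, could not be tested.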

Other observations

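Outside the lists, and chosen after their values were seen, 2 abundant genes and several weakly expressed ones showed large differences. Gpx2, a glutathione peroxidase of epithelia, measured 56.8, 128 and 88.6 CPM in the untreated and 289.8, 396 and 383 CPM in the Rspo1-positive libraries (log2 fold change 2.05, SE 0.16, adjusted p = 0.000142). Sulf2, which removes sulphate from heparan sulphate chains and so alters growth factor binding, measured 102, 161 and 151 CPM in the untreated and 310.1, 323 and 354 CPM in the Rspo1-positive libraries (log2 fold change 1.29, SE 0.15, adjusted p = 0.000889). Prelp, a small leucine-rich matrix protein, measured 0.0922, 0.901 and 0.345 CPM in the untreated and 2.38, 9.32 and 3.13 CPM in the Rspo1-positive libraries (log2 fold change 3.56, SE 0.32, adjusted p = 0.000267). Esam, an adhesion molecule of endothelium and platelets, measured 0.4, 0.534 and 0.834 CPM in the untreated and 5.28, 5.96 and 5.16 CPM in the Rspo1-positive libraries (log2 fold change 3.24, SE 0.29, adjusted p = 0.000274), while the endothelial markers Cdh5 and Pecam1 stayed near 0. Gatm, which makes the creatine precursor, measured 0.0922, 0.3 and 0.0288 CPM in the untreated and 1.74, 1.45 and 1.14 CPM in the Rspo1-positive libraries (log2 fold change 3.48, SE 0.54, adjusted p = 0.00464). Ccdc80, a secreted matrix protein, measured 0.0922, 0.0668 and 0.0288 CPM in the untreated and 1.79, 3.00 and 1.42 CPM in the Rspo1-positive libraries, but no untreated library had more than 3 counts. Kcnj16, an inward rectifier potassium channel, fell (log2 fold change -3.70, SE 0.33, adjusted p = 0.000254). Prelp lost the call with passage left out of the model, at an adjusted p of 0.0529.

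A pair of small structured RNAs and the ribosomal RNA locus were high in the same libraries. Rmrp, the RNA of a ribonuclease that processes ribosomal RNA, measured 0.43, 0.835 and 0.863 CPM in the untreated and 0.417, 38.1 and 14.5 CPM in the Rspo1-positive libraries (log2 fold change 4.03, SE 0.76, adjusted p = 0.0115). AL732506.1 was listed with the same values as Rmrp. Rpph1, the RNA of ribonuclease P, measured 0.4, 2.74 and 1.99 CPM in the untreated and 0.54, 51.4 and 22.9 CPM in the Rspo1-positive libraries (log2 fold change 3.46, SE 0.50, adjusted p = 0.00323). Both were high only in the Rspo1-positive libraries of passages 6 and 10 among these 6, where the locus took 20.9 and 10.1% of counts. Ccnb1ip1, a protein-coding gene that overlaps Rpph1, had nearly the same values, at 0.4, 2.74 and 1.99 CPM in the untreated and 0.54, 51.2 and 22.7 CPM in the Rspo1-positive libraries. Of 169 tested rRNA, snRNA, snoRNA, scaRNA, ribozyme and miscellaneous RNA genes, 7 were called higher and 1 lower, fewer than the 5.85% and 5.54% of all tested genes (log2 median 0.55; 0.10, 1.19 and 0.23 at passages 5, 6 and 10). Rmrp and Rpph1 lost the call with passage left out of the model, at adjusted p of 0.0935 to 0.164. The part of that share in these values was not tested.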
